A study of Mus musculus with 20 samples.

Results

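The genes described here are 3 glutathione S-transferases, Gstm2, Gstm4 and Gsta4, and the metallothionein Mt2, measured in liver and brown adipose tissue of mice of the Fob3b-line and the F-line. All clones annotated to these 4 genes were taken, 6 clones of the 15360 printed on 2 designs of spotted cDNA array. Gstm2 had 2 clones, Gstm4 had 1 and Gsta4 had 1, all on the second design, and Mt2 had 2 clones, both on the first design. The genes were chosen by their ratios on these arrays, so the line ratios below are a description and carry no test. The F-line is a line selected for fatness, and Fob3b is an obesity locus for which the Fob3b-line differs from it. Each of the 20 arrays set 1 RNA pool in red against 1 in green. Fob3b-line pool 1 was set against F-line pool 1 and Fob3b-line pool 2 against F-line pool 2, each in both dye orientations, for liver on both designs and for brown adipose tissue on the first. Brown adipose tissue on the second design had pool pair 1 alone. The first design also had an array with Fob3b-line liver pool 1 in both channels and one with F-line liver pool 1 in both channels. The second had 2 liver arrays with the pool numbers crossed, 1 array of Fob3b-line pool 2 over pool 1 and 1 of F-line pool 2 over pool 1. The labels give no age, sex or diet and do not say how many animals made up a pool.

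Glutathione S-transferases join the tripeptide glutathione to electrophiles, drugs and products of lipid peroxidation, which are then exported from the cell. Gstm2 and Gstm4 encode enzymes of the mu class, and Gsta4 an alpha-class enzyme that acts on the lipid peroxidation product 4-hydroxynonenal. Metallothioneins are small cysteine-rich proteins that bind zinc and copper, and in liver Mt1 and Mt2 are induced by zinc, cadmium, glucocorticoids and inflammation. In the RefSeq gene table the mu-class genes Gstm5, Gstm7, Gstm6, Gstm3, Gstm2, Gstm1 and Gstm4 follow one another, and Mt2 lies between Mt3 and Mt1.

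The bases before the RefSeq start sites are shown for the 2 mu-class members and for Mt2, as regions searched for antioxidant and metal response elements. Each run is 250 bases of GRCm38.p6, read 5′ to 3′ on the gene's strand and ending just before the start site, at chr3:107986421-107986670 on the minus strand for Gstm2, chr3:108044860-108045109 on the minus strand for Gstm4 and chr8:94172368-94172617 on the plus strand for Mt2. Capitals mark matches, on either strand, to an antioxidant response element, spelled TGACNNNGC, or to a metal response element, spelled TGCACNC or TGCGCNC.
Gstm2: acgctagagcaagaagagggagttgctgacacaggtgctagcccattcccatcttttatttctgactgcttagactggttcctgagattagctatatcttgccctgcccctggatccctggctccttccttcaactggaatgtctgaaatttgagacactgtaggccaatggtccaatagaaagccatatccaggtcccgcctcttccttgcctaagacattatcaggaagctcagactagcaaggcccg
Gstm4: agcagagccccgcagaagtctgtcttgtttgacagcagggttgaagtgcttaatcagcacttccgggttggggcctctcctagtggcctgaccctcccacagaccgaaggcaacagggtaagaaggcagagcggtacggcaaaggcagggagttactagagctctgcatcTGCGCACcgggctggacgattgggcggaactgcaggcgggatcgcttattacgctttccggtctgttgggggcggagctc
Mt2: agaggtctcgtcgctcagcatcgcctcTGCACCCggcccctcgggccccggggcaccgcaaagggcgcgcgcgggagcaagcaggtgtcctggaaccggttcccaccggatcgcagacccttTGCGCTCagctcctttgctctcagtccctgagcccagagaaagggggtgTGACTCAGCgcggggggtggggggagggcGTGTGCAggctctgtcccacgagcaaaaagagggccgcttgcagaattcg

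The Mt2 window held 3 matches to the metal response element, at 223, 128 and 50 bases before the start site, and 1 to the antioxidant response element at 79 bases before it. Gstm4 held 1 match to the metal response element, 80 bases before its start, and Gstm2 held none to either. Among 27025 promoter windows of the same length, 21.3% held a metal response element, 1.28% held at least as many as Mt2, and 10.1% held an antioxidant response element. Mt2 and Mt1 each also held 1 GCGTG, the core of the xenobiotic response element, which 28.2% of windows held and which overlaps the last metal-element match of Mt2. Mt1 held 1 metal response element. These are letter matches in 1 window and say nothing of binding.

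A ratio is the deposited log value of a spot, read as log2, centred on the median clone spot of its array and turned to the Fob3b-line over the F-line. Which dye is the numerator is not stated, so a positive value means higher in the Fob3b-line only where the files hold red over green. Otherwise every sign turns together, provided that the numerator is the same and the channel labels are right on all arrays. The mean for a tissue is over pool pairs, with the dye-swapped arrays of a pair averaged first (n = 2 pool pairs). The paired spots of a clone correlated at 0.760 to 0.932 per array of the first design, and at 0.636 to 0.865 per array of the other. Over all first-design clones, dye swaps, turned alike, correlated at 0.16 and -0.29 in liver pairs 1 and 2. In brown adipose tissue they correlated at -0.23 and -0.60. The pool pairs of that design correlated at -0.20 in liver and -0.24 in brown adipose tissue. On the second design dye swaps gave 0.08 and 0.40 in liver and 0.47 in brown adipose tissue, and liver pairs gave 0.23. So first-design line ratios, the only ones for Mt2, did not repeat over clones between pool pairs. The median standard error of a liver ratio was 0.203 in the first and 0.084 in the other. The standard errors (SE) of ratios come from the limma fit and draw mostly on a variance shared by all clones. Intensities were not used here, so signal over background is unknown and a level in one tissue cannot be set against a level in another. For the same reason the tissue labels could not be checked against their defining markers. For the brown adipose slides of the second design, and for the Fob3b-line self-self slide, the text description is at odds with the channel labels, which were followed. If the channels of those brown adipose slides were in fact swapped, the signs of their ratios alone would turn. In pooled tissue, fewer cells of a type and less RNA per cell cannot be told apart. Before centring, the median clone stood at -0.37 for liver and -0.36 for brown adipose tissue on the second design, and at -0.11 for liver and 0.30 for brown adipose tissue among arrays of the first.

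In liver the glutathione S-transferase members lay on the positive side on every array of the matched pool pairs on the second design, with means of 1.18 to 1.27-fold, whereas without centring all 4 clones had negative means. Gstm4, clone 31724, had ratios of 0.27 and 0.32 in pool pair 1 and of 0.31 and 0.46 in pool pair 2. Its mean was 0.34 (SE 0.08, SD of the pool pairs 0.06), the largest of the members, and 33 of 7680 clones lay farther on that side. No array of either pair or dye orientation gave Gstm4 less than 0.27.

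Gsta4, clone 30720, had ratios of 0.29 and 0.50 in pool pair 1 and 0.09 and 0.28 in pool pair 2, which averaged 0.29 (SE 0.09, SD 0.15). The pair means of 0.39 and 0.18 for Gsta4 differ by more than those of Gstm4. Gstm2 was read by 2 clones. Clone 32213 of Gstm2 gave 0.34 and 0.33 in pool pair 1 and 0.25 and 0.19 in pool pair 2, which averaged 0.27 (SE 0.08, SD 0.08). Clone 21996 of Gstm2 gave 0.10 and 0.17 in pool pair 1 and 0.20 and 0.50 in pool pair 2, which averaged 0.24 (SE 0.09, SD 0.15). The clones of Gstm2 thus had close means but opposite orders of the pairs, 0.33 and 0.22 in clone 32213 against 0.14 and 0.35 in clone 21996.

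All 4 clones were positive on all 4 arrays of the matched pairs, as were 9.08% of all clones. None of the 4 was among the clones past an adjusted p of 0.05 in limma across all clones, which were 29 or 0.378% of the 7680. Of those 29, 2 were positive and 27 negative.

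**Figure D1:**
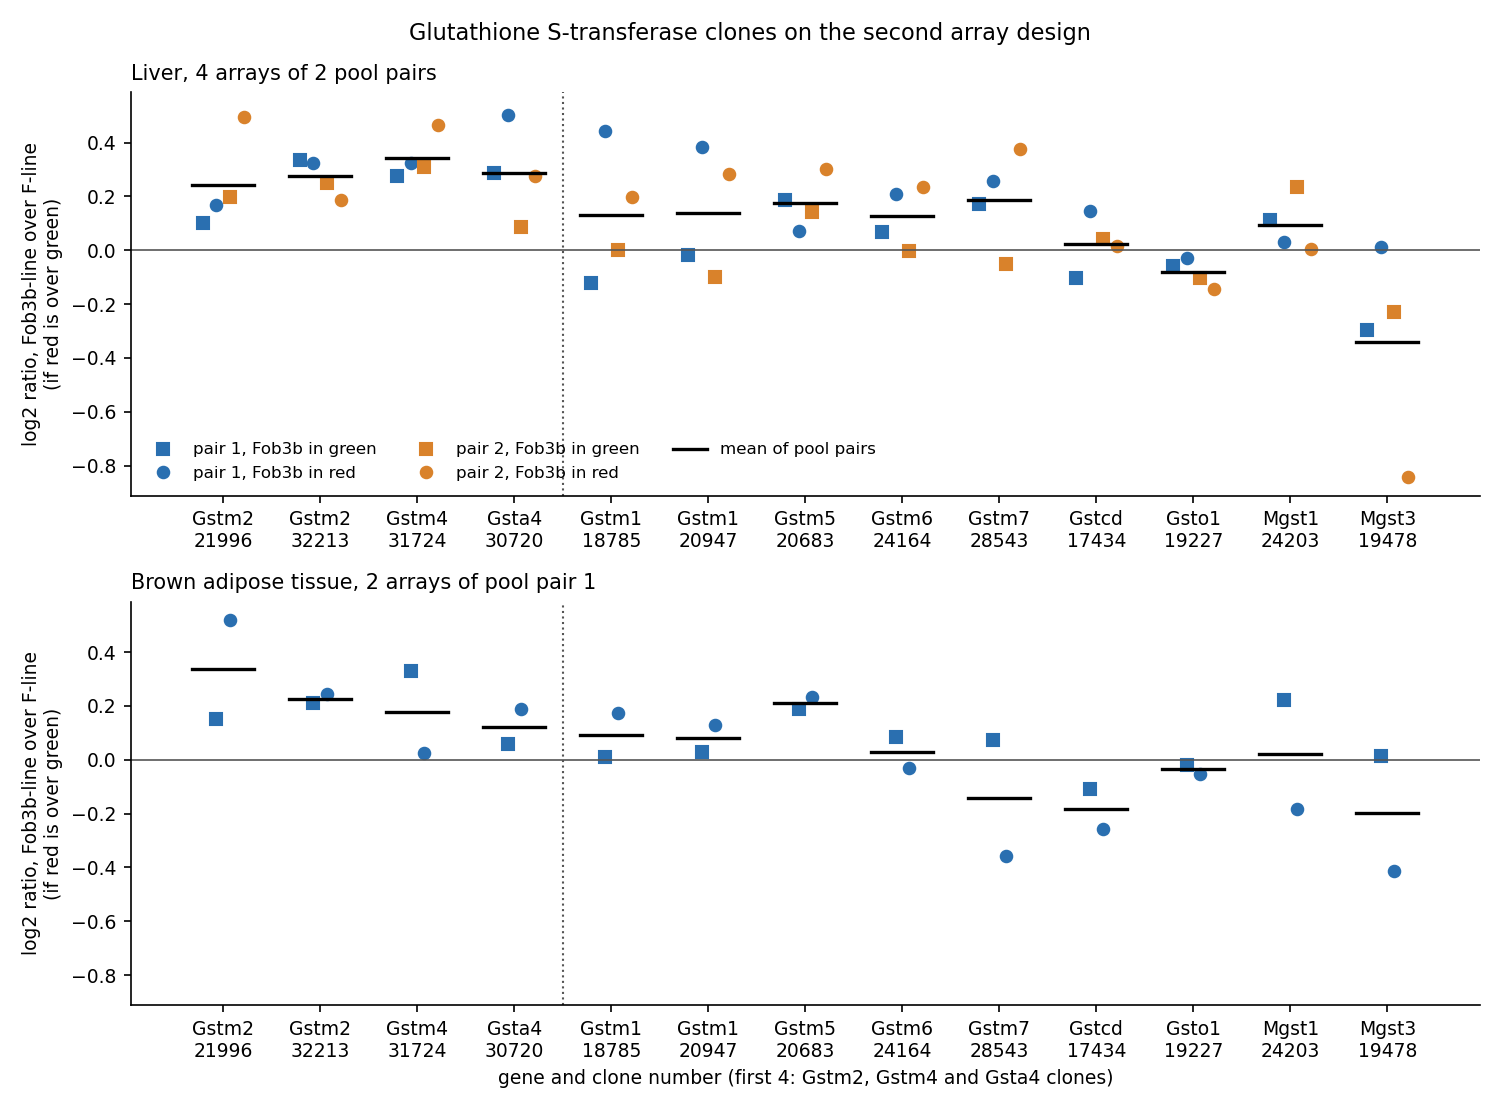
Centred log2 ratios of each glutathione S-transferase clone on the second design, with 1 point per array of the matched pool pairs (colour: pool pair; square: Fob3b-line in green; circle: Fob3b-line in red) and a bar for the mean over pool pairs. The 4 clones of Gstm2, Gstm4 and Gsta4, left of the dotted line, lie above 0 on all these arrays of both tissues, while without centring all 4 have negative means in both. Brown adipose signs follow the channel labels, with which the text description of those slides is at odds.

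The other mu-class enzymes of the second design leaned the same way in liver, by smaller ratios that also depend on the centring. All 8 mu-class clones, of 6 genes, had positive liver means of 0.13 to 0.34, and 4 of them, the Gstm2, Gstm4 and Gstm5 clones, were positive on all arrays. Gstm5 averaged 0.17, Gstm7 averaged 0.19 and Gstm6 averaged 0.13. The clones of Gstm1, 18785 and 20947, averaged 0.13 and 0.14, but both were negative or near 0 on the arrays with the Fob3b-line in green. cDNA clones of such close relatives can bind one another's transcripts, so the ratio of any 1 mu-class gene is uncertain.

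Outside the mu and alpha classes the ratios were mixed. Mgst1, a membrane-bound glutathione transferase, averaged 0.10 and was positive on all 4 liver arrays. Gsto1, an omega-class enzyme, averaged -0.08 and was negative on all 4. Mgst3, another membrane-bound member of that family, averaged -0.34, with -0.30, 0.01, -0.23 and -0.84 on the 4 arrays, so 1 array of pool pair 2 carried much of it. Gstcd, which carries a transferase-like domain, averaged 0.02. Gstp1, the pi-class enzyme, was on the first design and averaged -0.35 in liver. Its liver ratios were -0.0018 and -1.15 in pool pair 1 and -0.24 and -0.02 in pool pair 2, so 1 array carried most of it. Gstp1 averaged 0.33 in brown adipose tissue, where 2 arrays were positive and 2 negative. In limma none of these other transferase clones passed an adjusted p of 0.05.

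The crossed arrays gave a less uniform picture than the matched pairs. With Fob3b-line pool 1 over F-line pool 2, the ratios were 0.44 for Gstm4, 0.27 for Gsta4, and 0.27 and 0.15 for Gstm2 clones 32213 and 21996. With Fob3b-line pool 2 over F-line pool 1 they were -0.25 for Gstm4, 0.17 for Gsta4, and -0.20 and 0.02 for the same Gstm2 clones. Gstm4 and Gstm2 clone 32213 thus differed in sign between the crossed arrays, and Gsta4 and Gstm2 clone 21996 did not. The first of these arrays had the Fob3b-line in green and the second had it in red, with no dye swap of either, so pools and dyes cannot be told apart here. On that second crossed array, 95% of all clones lay between -0.44 and 0.36.

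The between-pool arrays measured the gap inside each line, on 1 array and in 1 dye orientation per line. Fob3b-line pool 2 over pool 1 gave -0.37 for Gstm4, -0.41 for Gstm2 clone 32213, -0.31 for Gsta4 and -0.05 for Gstm2 clone 21996. F-line pool 2 over pool 1 gave -0.10, -0.06, 0.22 and 0.24 for the same clones in that order. Within the Fob3b-line, pool 1 was the higher for all 4 clones, and for 3 of them by more than the mean ratio between the lines. All 4 values lay inside the range of -0.42 to 0.455 that held 95% of all clones on that array.

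All 8 liver arrays of the second design were then fitted with a level for each of the 4 pools and a dye term, which leaves 4 residual degrees of freedom per clone. For Gstm4 the fitted levels were 0.31 and -0.05 in Fob3b-line pools 1 and 2, against 0.03 and -0.29 in F-line pools 1 and 2. The line difference of Gstm4 was 0.26, while its pools within a line differed by -0.36 in the Fob3b-line and -0.32 in the F-line, so Fob3b-line pool 2 lay below F-line pool 1. Gsta4 had 0.29 and -0.02 in the Fob3b-line pools, against -0.14 and -0.13 in the F-line pools, a line difference of 0.27. Both Fob3b-line pools of Gsta4 thus stood above both F-line pools, with pool 2 the nearer to them. The residual SD of Gsta4 was 0.098, and its fitted F-line gap was 0.01, against the 0.22 read on the F-line between-pool array.

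Gstm2 clone 21996 had the same order, at 0.12 and 0.07 in the Fob3b-line pools against -0.05 and -0.14 in the F-line pools. Its residual SD was 0.195, more than the distance between Fob3b-line pool 2 and F-line pool 1, and its fitted F-line gap of -0.10 has the opposite sign to the 0.24 read on the F-line between-pool array. Gstm2 clone 32213 had 0.25 and -0.06 in the Fob3b-line pools against -0.04 and -0.16 in the F-line pools, which overlap. So 2 of the 4 clones had both Fob3b-line pools above both F-line pools, an order that 12.1% of all clones showed, and none of the 4 had it without centring. Over all clones the median residual SD of this fit was 0.146, the median size of the line difference 0.054, and the median gap between pools 0.098 in the Fob3b-line and 0.097 in the F-line.

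**Figure D2:**
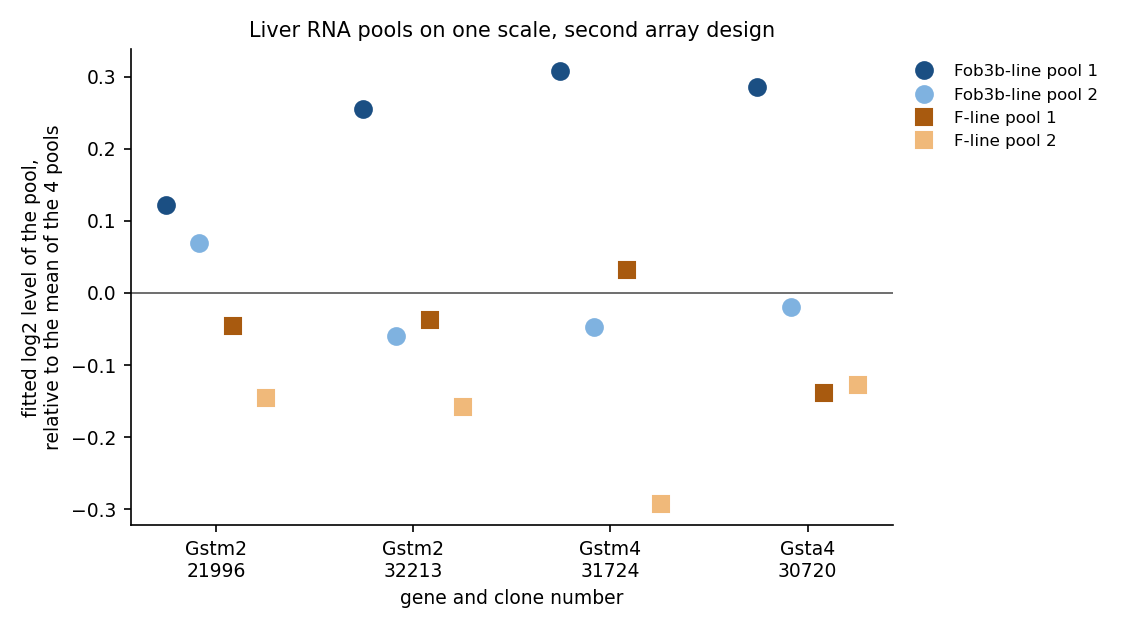
Fitted log2 level of each liver pool relative to the mean of the 4 pools, for the Gstm2, Gstm4 and Gsta4 clones (circles: Fob3b-line pools; squares: F-line pools). Fob3b-line pool 1 is the highest for each clone, and Fob3b-line pool 2 lies below F-line pool 1 for Gstm4 and Gstm2 clone 32213; without centring none of the 4 clones keeps both Fob3b-line pools above both F-line pools.

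In brown adipose tissue the second design had 1 pool pair, and its ratios were not tested. Signs of this pair, here and in the lists below, follow the channel labels, with which the text description of these slides is at odds. Gstm2 clone 21996 gave 0.15 with the Fob3b-line in green and 0.52 with it in red, and clone 32213 gave 0.21 and 0.24. Gstm4 gave 0.33 and 0.03, and Gsta4 gave 0.06 and 0.19. All 4 clones were positive on both arrays, which 29.9% of all clones were, and without centring all 4 had negative means. Their means were 0.34 and 0.23 for Gstm2, 0.18 for Gstm4 and 0.12 for Gsta4, and none passed 1.5-fold, which 2.27% of all clones did in either direction. The order of the members thus differed from liver, with Gstm2 first and Gstm4 behind it, though the dye orientations of Gstm4 stood farther apart than the means of Gstm2 and Gstm4.

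Skeletal muscle markers moved beside these values: all 3 measured on the second design were positive in brown adipose tissue, with 0.73 for the tropomyosin gene Tpm2, 0.69 for the myosin light chain gene Mylpf and 0.29 for the actinin gene Actn2. On the first design Tpm2 was negative in the same labelled pool pair, at -0.89. The part of muscle RNA, or of the labelling of these slides, in the transferase ratios was not tested. Of the brown adipocyte markers, 2 were measured on this design, and both had negative means, with a median of -0.10. That median was 0.01 with the Fob3b-line in green and -0.22 with it in red, and neither marker kept 1 sign on both arrays. In liver the same muscle markers had a median of -0.03 and the 3 blood cell markers a median of -0.06.

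Mt2 ratios were negative on average in brown adipose tissue, which is lower in the Fob3b-line on the sign convention used here, and its clones differed in how evenly they showed it. Clone 8783 gave -1.04 and -0.45 in pool pair 1 and -0.75 and -0.26 in pool pair 2. Its mean was -0.62 (SE 0.26, SD of the pool pairs 0.17), a 1.54-fold difference, and 1 of 7680 clones lay farther on that side. Clone 5190 of Mt2 gave -0.63 and -1.06 in pool pair 1, but -0.10 and 0.06 in pool pair 2, which averaged -0.43 (SE 0.29, SD 0.59). The difference in clone 5190 rested on pool pair 1, while in clone 8783 both pairs carried it.

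So 1 of the 2 Mt2 clones was negative on all 4 brown adipose arrays, as were 3.27% of all clones. Without centring the means were -0.35 for clone 8783 and -0.16 for clone 5190, of the same sign. Neither passed an adjusted p of 0.05, and nor did any clone on this design in brown adipose tissue (0% of 7680), where 65 clones had an unadjusted p under 0.05 in limma. Mt1, the neighbouring metallothionein, gave -0.15 and -0.53 in pool pair 1 and -0.30 and 0.45 in pool pair 2, a mean of -0.13. Its last array went against the other 3. Both skeletal muscle markers of this design were negative in the same tissue, Tpm2 at -0.58 and the actinin gene Actn3 at -0.47, and their part in the Mt2 ratio was not tested.

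In liver the metallothionein ratios split by pool pair. Clone 5190 of Mt2 gave -0.11 and -1.09 in pool pair 1, against 0.98 and 0.19 in pool pair 2. Clone 8783 of Mt2 gave -0.25 and -0.35 in pool pair 1, against 0.30 and 1.33 in pool pair 2. Mt1 gave -0.18 and -1.17 in pool pair 1, against 0.46 and 0.01 in pool pair 2. All 3 clones were negative on both arrays of pair 1 and positive on both arrays of pair 2, and the means of -0.01, 0.26 and -0.22 are averages of opposite values.

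Neither Mt2 clone was negative on all 4 liver arrays, as were 3.44% of all clones. No clone of any gene passed an adjusted p of 0.05 in liver on this design (0%), where 253 had an unadjusted p under 0.05 in limma. The liver minus brown adipose difference was 0.88 (SE 0.36) for Mt2 clone 8783 and 0.42 (SE 0.41) for clone 5190, while Mt1 gave -0.09 (SE 0.34). These are given as a description, since the genes were chosen on these ratios.

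The self-self arrays gave the ratio with no line difference. Clone 8783 of Mt2 read -0.46 with Fob3b-line pool 1 in both channels and -0.61 with F-line pool 1 in both. Its brown adipose mean was -0.62, in which both dye orientations entered in equal number. Clone 5190 read 0.08 on both self-self arrays, and Mt1 read -0.13 in the Fob3b-line and -0.17 in the F-line. Over all clones, 95% lay between -0.49 and 0.70 on the Fob3b-line self-self array and between -0.57 and 0.95 on that of the F-line. In brown adipose tissue clone 8783 averaged -0.65 over the arrays with the Fob3b-line in red and -0.60 over those with it in green. Within the pairs the orientations differed in opposite order, at -1.04 in red and -0.45 in green in pair 1. Pair 2 had -0.26 in red and -0.75 in green. The part of the dyes in this ratio was not tested.

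**Figure D3:**
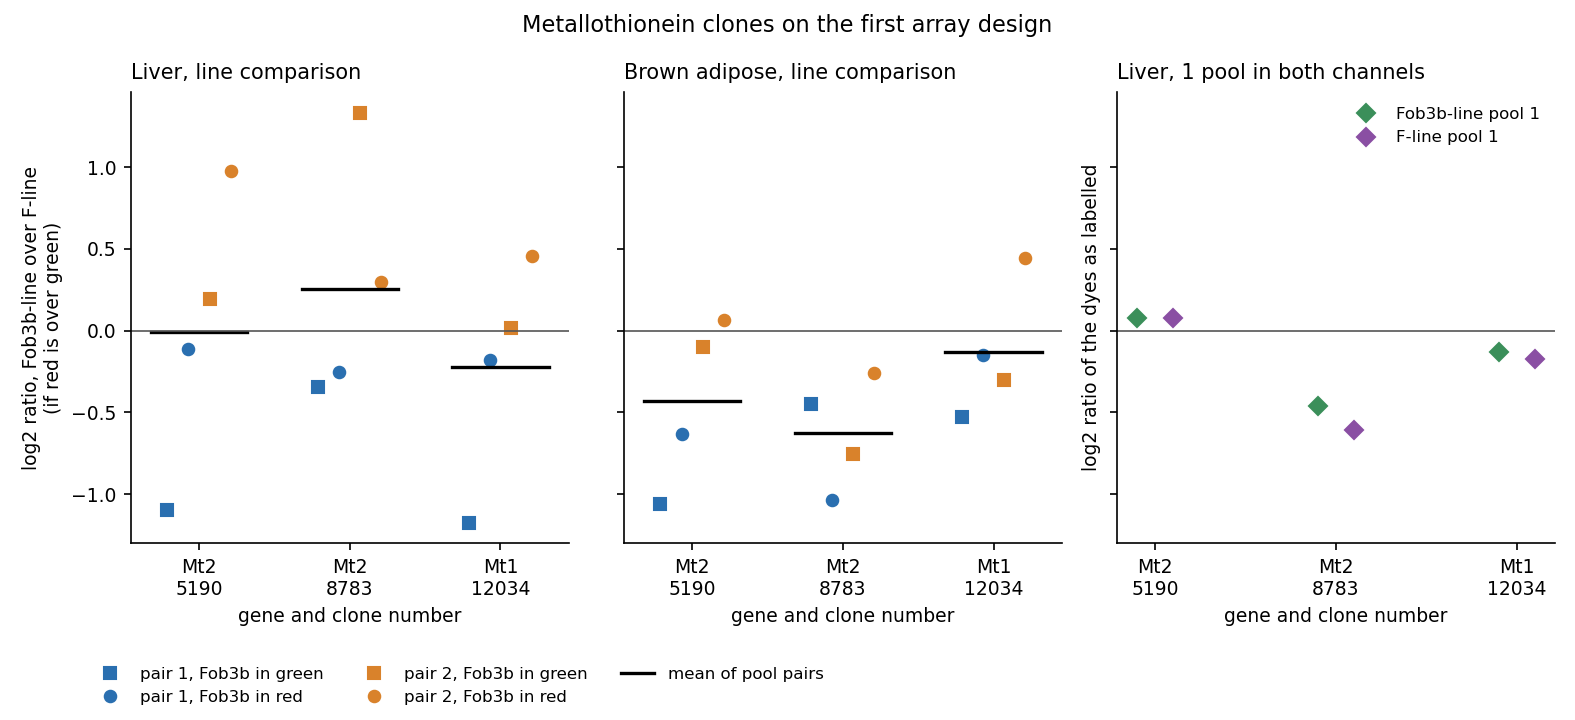
Centred log2 ratios of the 2 Mt2 clones and the Mt1 clone on the first design, with 1 point per array and a bar for the mean over pool pairs, and at right the self-self arrays, Fob3b-line left of F-line. In liver every pair 1 point lies below 0 and every pair 2 point above it, in brown adipose tissue Mt2 clone 8783 lies below 0 on all 4 arrays, and without centring both Mt2 brown adipose means are still negative.

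The genes that make and use glutathione were set beside the transferases. This list had 9 measured genes on the first design and 6 on the other, and no member passed an adjusted p of 0.05 in any tested comparison. In liver on the first design 0 of 9 were positive, with a median of -0.23, against 44.9% of all 3838 genes and a median of -0.02. That list median was -0.57 in pair 1 and 0.14 in pair 2. The pair 1 array with the Fob3b-line in green gave this list -0.83, the 5 hepatocyte markers -1.22 and the drug metabolism list -1.26. That array is also the liver array with the lowest values of Mt1, of both Mt2 clones and of Gstp1. Albumin, Alb, the main secreted protein of hepatocytes, averaged -0.74 and was negative on all 4 arrays, at -1.26 in pair 1 and -0.22 in pair 2. The other hepatocyte markers, Apoa1, Apob, Ttr and Fga, were positive in pair 2, at 0.31, 0.24, 0.16 and 0.11. The median of the 5 markers was -0.65 in pair 1 and 0.16 in pair 2. The part of hepatocyte RNA in the liver ratios of the first design was not tested.

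Brown adipose arrays of the first design had 8 of 9 glutathione genes positive, with a median of 0.14, against 59.3% of all genes and a median of 0.03. Glrx5, a mitochondrial glutaredoxin, gave 0.18, positive on all arrays. On the second design 5 of 6 were positive in liver, with a median of 0.07, against 51.3% of all 4075 genes. That median was 0.15 in pair 1, -0.01 in pair 2 and -0.30 without centring. Lap3, a leucine aminopeptidase that can split the cysteinylglycine left by glutathione breakdown, gave 0.28, positive on all 4 liver arrays. In liver on the first design Lap3 went the other way, at -0.18, with -0.29 in pair 1 and -0.07 in pair 2. In brown adipose tissue 3 of 6 were positive, against 56.1% of all genes, and the glutathione peroxidase genes Gpx8 and Gpx3 gave -0.55 and -0.39.

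Oxidative stress genes gave no common direction in liver over the 2 designs. On the second design 5 of 8 were positive in liver, against 51.3% of all genes, with a median of 0.05. Thioredoxin, Txn1, gave 0.16 and superoxide dismutase, Sod1, gave 0.10, both positive on all 4 arrays. Txnip, which binds and inhibits thioredoxin, gave -0.42 in liver, negative on all 4 arrays, at -0.18 in pair 1 and -0.66 in pair 2. In brown adipose tissue 7 of 8 were positive, against 56.1% of all genes, with a median of 0.17 that was -0.19 without centring. Txnip gave 0.36 there and the mitochondrial peroxiredoxin Prdx3 gave 0.31. The difference of Txnip between the tissues was not tested. On the first design 1 of 9 was positive in liver, against 44.9% of all genes, with a median of -0.26. That median was -0.36 in pair 1 and -0.01 in pair 2. In brown adipose tissue 5 of 9 were positive, against 59.3% of all genes.

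Genes of zinc, copper and iron handling, the partners of the metallothioneins, were mixed. On the first design 5 of 13 were positive in liver and 10 of 13 in brown adipose tissue, against 44.9% and 59.3% of all genes. The list medians were -0.01 and 0.08. The zinc and iron transporter gene Slc39a14 gave -0.32 in brown adipose tissue and the ferritin heavy chain gene Fth1 gave 0.19, each of 1 sign on all arrays. On the second design 14 of 18 were positive in liver and 11 of 18 in brown adipose tissue, against 51.3% and 56.1% of all genes. The list medians there were 0.05 and 0.04, and without centring -0.32 and -0.31. The zinc importer gene Slc39a4 gave -0.41 in liver and the copper transporter gene Atp7a gave -0.19, both negative on all 4 arrays, and the zinc exporter gene Slc30a7 gave -0.32 in brown adipose tissue. None of these genes passed an adjusted p of 0.05 in limma where a test was made. Of all 4075 genes, 776 had 1 sign on all 4 liver arrays of the second design. Of all 3838 genes, 240 had 1 sign on all 4 brown adipose arrays of the first.

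Other drug-metabolising genes were mixed in sign. In liver 0 of 4 were positive on the first design and 2 of 6 on the other, against 44.9% and 51.3% of all genes. Their liver medians were -0.38 and -0.05. Aldh2, the mitochondrial aldehyde dehydrogenase, gave -0.24 in liver and -0.45 in brown adipose tissue on the second design. The aldehyde reductase gene Akr1a1 gave 0.18 in liver on that design but -0.26 in liver on the first. In brown adipose tissue 3 of 4 were positive on the first design, against 59.3% of all genes. Adh5, which acts on the glutathione adduct of formaldehyde, gave 0.24 there. On the second design 3 of 6 were positive in brown adipose tissue, against 56.1% of all genes. The epoxide hydrolase gene Ephx1 gave 0.41 there.

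**Figure D4:**
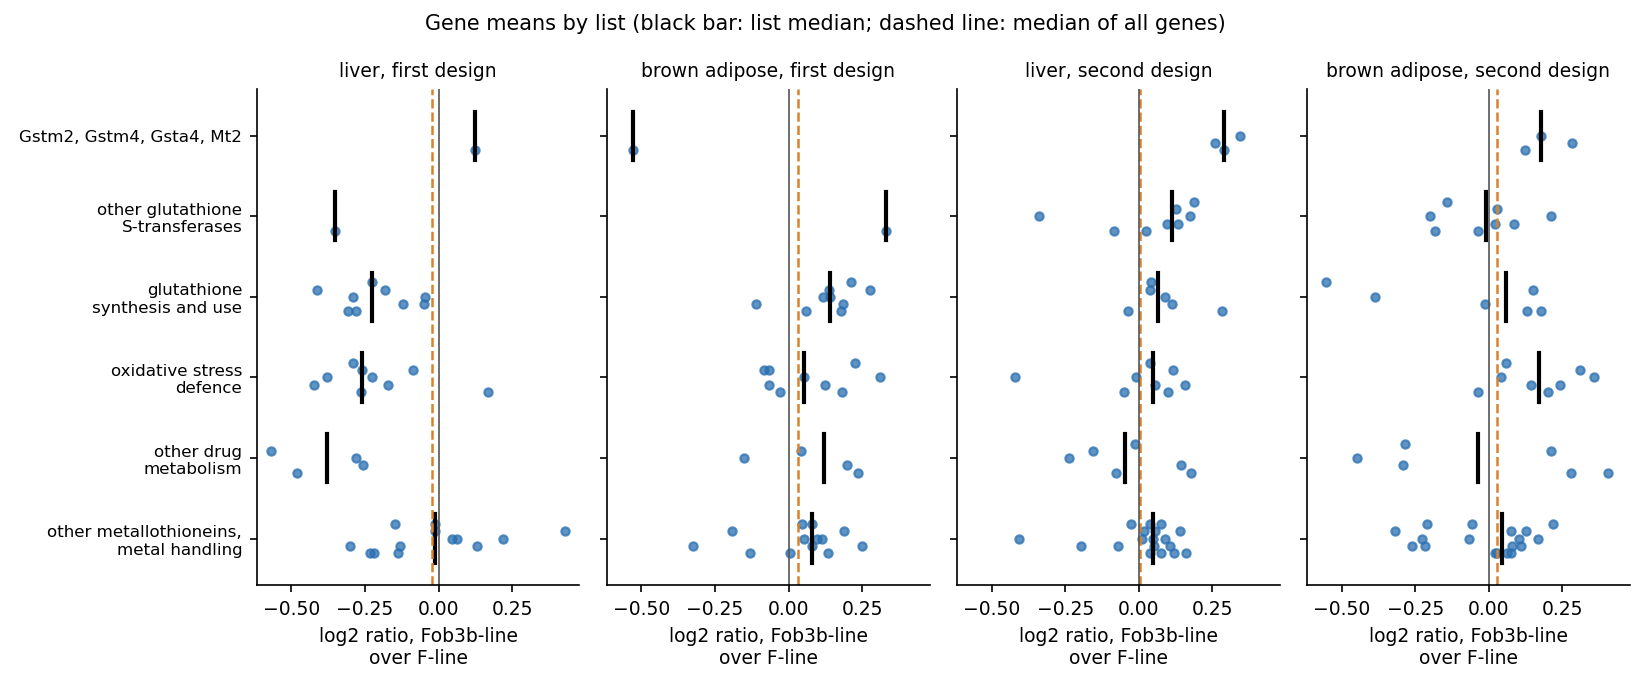
Mean centred log2 ratio of each gene, by list, for the 2 tissues on the 2 designs (point: gene; black bar: list median; dashed line: median of all genes). The glutathione genes lie at or below -0.05 in liver on the first design and 8 of 9 lie above 0 in brown adipose tissue on that design, and without centring the Gstm2, Gstm4 and Gsta4 means of the second design turn negative.

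Across the 10 arrays of their design the clones of 1 gene had a Pearson correlation of 0.82 for Gstm2 and 0.72 for Mt2. Each of these clones correlated more highly with its nearest clone of another gene. Mt1 correlated with the Mt2 clones at 0.80 for 5190 and 0.65 for 8783, and Gstm2 clone 21996 with Gstm5 at 0.88. These correlations are descriptions, since the points share arrays, dyes and pools. The most similar annotated clones over the same 10 arrays were those of Oat for Gsta4 (0.96), Ttc14 for Gstm4 (0.95), Parp12 for Gstm2 clone 21996 (0.96), Arhgef10 for Gstm2 clone 32213 (0.95), Fau for Mt2 clone 5190 (0.92) and Setd6 for Mt2 clone 8783 (0.91). Sorbs2 was among the nearest 3 for both Gstm4 and Gstm2 clone 32213, at 0.94 and 0.92.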

How the data were processed

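The deposited values are log ratios, 1 for each spot of an array, read as log2 from their range. Their log base and numerator are not stated, and no source used here describes an earlier normalization. Each of the 17280 spots of a design lies in 1 of 48 blocks, and the 7680 clones were each averaged over 2 spots, leaving out 1920 control spots per design. Arrays were centred on their median clone spot and turned to the Fob3b-line over the F-line by channel label. Dye swaps of a pool pair were averaged, and clones were fitted in R 4.3.3 by limma 3.58.1, tissue being the factor, with Benjamini-Hochberg adjustment over all clones and a threshold of 0.05, two-sided. With 2 pool pairs, a p-value rests on pools, not animals, and only in part on the clone's own spread between them. The standard errors and p-values are moderated, so each clone's variance is drawn towards one shared by all clones. For the first design the shared variance had a weight of 8.76 degrees of freedom, against 2 residual ones. For the second the weights were 7.63 and 1, so the shared variance counted for most of both.

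Genes and lists were chosen with earlier results of these data known. Named were all clones of the 4 genes, other transferases, Mt1, and of each list up to 6 genes per comparison with the largest mean among those of 1 sign on all arrays, or 3 for cell types. Gene names came from the annotation supplied for the arrays, and promoter sequences from RefSeq (GRCm38.p6, 3 of the 4 genes matched).

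Pool numbers recur in both tissues. Over clones, the difference of pair 1 and pair 2 correlated at 0.38 between liver and brown adipose tissue on the first design. Alternatives changed the centring, the scale, the averaging of spots, the unit of replication and the pools included.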

Additional observations from a re-analysis of the deposited data

How the results depend on the processing

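The number of clones past an adjusted p of 0.05 depended on the processing. For liver on the second design, where 29 clones passed, 159 passed with no centring, 7 of the genes when clones were averaged per gene, 2 with every array as a replicate, and 0 with printing blocks centred, with arrays scaled, with the crossed arrays added or with the fit of 4 pools and a dye term. For liver on the first design, where 0 passed, leaving out a pool pair gave 42 to 140. For brown adipose tissue on that design 1 passed with no centring, 4 with the tissue fitted alone, and 0 to 1 without a pool pair. For liver minus brown adipose tissue, where 0 passed and 220 had an unadjusted p under 0.05 in limma, leaving out a pool pair gave 0 to 95. A tissue left with 1 pool pair was assumed to vary like the other. With the replicate number as a block, 0 clones passed in each of these 3 comparisons of the first design. On the second design no fit with a block or a left-out pair was possible, because no residual degrees of freedom remain. For brown adipose tissue there, where 174 clones were past 1.5-fold, the count was 1283 with no centring, 113 with printing blocks centred, 61 with arrays scaled and 62 per gene. With no centring 0 of the 4 transferase clones had both Fob3b-line pools above both F-line pools, against 2 with it. Of 64 alternative means of the transferase members 8 turned in sign, all without centring, and of 36 for Mt2 4 did, all in liver. Of 190 alternative medians of the gene lists, 39 turned in sign, and 57 moved by more than 1 SD of the pool pairs or, with 1 pair, of its arrays. The cause of these shifts was not tested.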

Other observations

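Genes of the acute phase and of the glucocorticoid response, signals known to induce metallothioneins, had 3 measured members on the first design and 4 on the other. In liver 2 of 3 and 2 of 4 were positive, against 44.9% and 51.3% of all genes. The list medians in liver were 0.16 and 0.02. Brown adipose tissue had 1 of 3 and 0 of 4 positive, against 59.3% and 56.1% of all genes. The list medians there were -0.12 and -0.19. Lcn2, an acute-phase protein that binds bacterial iron carriers, averaged 0.42 in liver on the second design and was positive on all 4 arrays, at 0.22 for pair 1 and 0.61 for pair 2. In brown adipose tissue on that design Lcn2 averaged -0.15. Fkbp5, a chaperone partner of the glucocorticoid receptor, averaged -0.27 in liver, negative on all 4 arrays, and -0.32 in brown adipose tissue, negative on both. Socs3, an inhibitor of cytokine signalling, averaged 0.30 in liver on the first design and was positive on all 4 arrays, and averaged -0.12 in brown adipose tissue on that design. None passed an adjusted p of 0.05 in limma where a test was made.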
